A study of Rattus norvegicus with 5 samples.

Results

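Transcripts of 10 genes of Toll-like receptor and NF-kappaB signalling were followed in parietal cortex of young rats with kaolin-induced hydrocephalus. They were the receptors Tlr2, Tlr3, Tlr4 and Tlr7, the co-receptor Cd14, the adaptor Myd88, the NF-kappaB subunit gene Nfkb1, the inhibitor gene Nfkbia, and the adhesion molecule genes Icam1 and Vcam1. Every non-control probe whose name in the scanner files, or whose current rat symbol, was in this set was taken, which gave 13 of 41012 probes and 10 of 35727 gene names. Of these 13 probes, 8 were matched to their gene by accession and 5 by symbol.

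Kaolin-injected rats received kaolin, a clay that obstructs the flow of cerebrospinal fluid and enlarges the ventricles, on postnatal day 1, and saline-injected rats received saline on the same day. Cortex was taken on postnatal day 22, which is post-kaolin day 21, and all pups stayed with the dam until then. Total RNA of 5 kaolin and 5 saline samples was hybridised to 5 two-colour oligonucleotide arrays, on each of which a kaolin sample carried Cy3 and a saline sample carried Cy5. The labels used here name no strain, sex or litter, do not say whether a sample was 1 animal, and give no ventricle size, so a kaolin sample is defined by the injection alone. No array had its dyes exchanged, so dye and treatment cannot be told apart. P-values below measure the spread between the 5 arrays, which may be technical in part, and with 5 arrays that spread is itself poorly known. A single slide carried replicates 1 to 4, and replicate 5 had a slide of its own. The kaolin channel had between 27956 and 29385 probes well above background, and the saline channel between 27372 and 28930. Over the 29114 tested probes, the log2 ratios of replicate 2 correlated at -0.37 with replicate 1 and at -0.17 with replicate 3. With replicates 4 and 5 the correlation was near 0 (r = -0.07 and -0.06), while replicates 3 and 4 correlated at 0.83. Because replicates 1 and 2 opposed each other although the labels give them the same dye order, the direction of replicate 2 is not settled beyond its label, and the comparison is also given with its sign turned. Neuron markers, a check of the tissue, were all well above background on every array in both channels (11 of 11), with 1 of 11 positive by mean ratio.

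Toll-like receptors recognise microbial molecules and molecules released by damaged cells. Tlr2 and Tlr4 act at the cell surface, where Cd14 hands ligands to them, and Tlr3 and Tlr7 sense RNA in endosomes. All except Tlr3 signal through Myd88, and the pathway frees NF-kappaB dimers, such as those holding the Nfkb1 product, from inhibitors such as the Nfkbia product. In the brain, microglia carry most of these receptors, and Icam1 and Vcam1 are induced by NF-kappaB on endothelium and glia, where they bind leukocyte integrins.

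Cd14 and Tlr2 had the largest kaolin over saline ratios among the 10 genes, at 2.65-fold and 2.11-fold, followed by Icam1 at 1.50-fold, Myd88 at 1.36-fold and Tlr4 at 1.33-fold. The order of these last 3 depended on the background correction: with the software's processed signals the mean log2 ratios were 0.98 for Tlr4, 0.75 for Myd88 and 0.74 for Icam1. Vcam1 was near equal in both groups, and so was Nfkb1 by its brighter probe, while the dimmer Nfkb1 probe had a mean log2 ratio of 0.24. Nfkbia was near equal by its brighter probe and lower in kaolin by its dimmer one. None of the 13 probes passed an adjusted p of 0.05 in limma (Benjamini-Hochberg over all tested probes), against 0% of all 29114 tested probes, and the smallest adjusted p among the 13 probes was 0.243. Without adjustment, 8 of the 13 probes had a p under 0.05, against 18.1% of tested probes: 7 were higher in kaolin (8.82% of tested probes) and 1 was lower (9.32%). The dimmer Cd14 probe passed the filter on dim probes only through the kaolin channel, and without it 6 of 12 probes were higher and 1 was lower. At an unadjusted p of 0.05, 5 of the 10 genes were higher in kaolin and 0 were lower by their brightest probe, against 8.47% higher and 9.83% lower of all 24824 tested genes. The mean log2 ratio was above 0 for 9 of the 10 genes, against 48.1% of tested genes. The ratio was positive on 5 of 5 arrays for 3 genes, Tlr2, Tlr4 and Myd88, against 5.78% of tested genes. On replicate 2 their ratios were 0.10, 0.02 and 0.17, and with the sign of that array turned these would be negative. All counts of arrays and of overlap in this text follow the labelled direction of replicate 2. The median over the 10 genes was 0.34, against -0.0081 over all tested genes. The call depended on how the arrays were weighted. With limma's array weights, 7 of the 13 probes passed an adjusted p of 0.05, against 9.72% of tested probes: those of Tlr2, Tlr4, Cd14 (both probes), Myd88 and Icam1 were higher and the dimmer Nfkbia probe was lower. Without the dimmer Cd14 probe this was 6 of 12. Without replicate 2 none of the 13 passed, against 5.28% of tested probes, and with the sign of replicate 2 turned none passed, against 1.68%. With that sign turned, mean log2 ratios were 1.47 and 0.89 for the Cd14 probes, 1.04 for Tlr2, 0.57 for Icam1, 0.40 for Tlr4, 0.37 for Myd88, 0.30 for Tlr3, 0.18 for Tlr7 and 0.04 for Vcam1. The Nfkb1 probes were then at -0.0090 and 0.15 and the Nfkbia probes at 0.17 and -0.35, the brighter probe first. The order of the leading genes, Cd14, Tlr2 and Icam1, was the same as in the labelled direction. This order is no check of the direction, because their ratios on replicate 2 were small (-0.16, 0.10 and 0.04). Turning that sign could move their means only slightly. In bulk tissue, more cells of a type and more RNA per cell cannot be told apart.

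**Figure D1:**
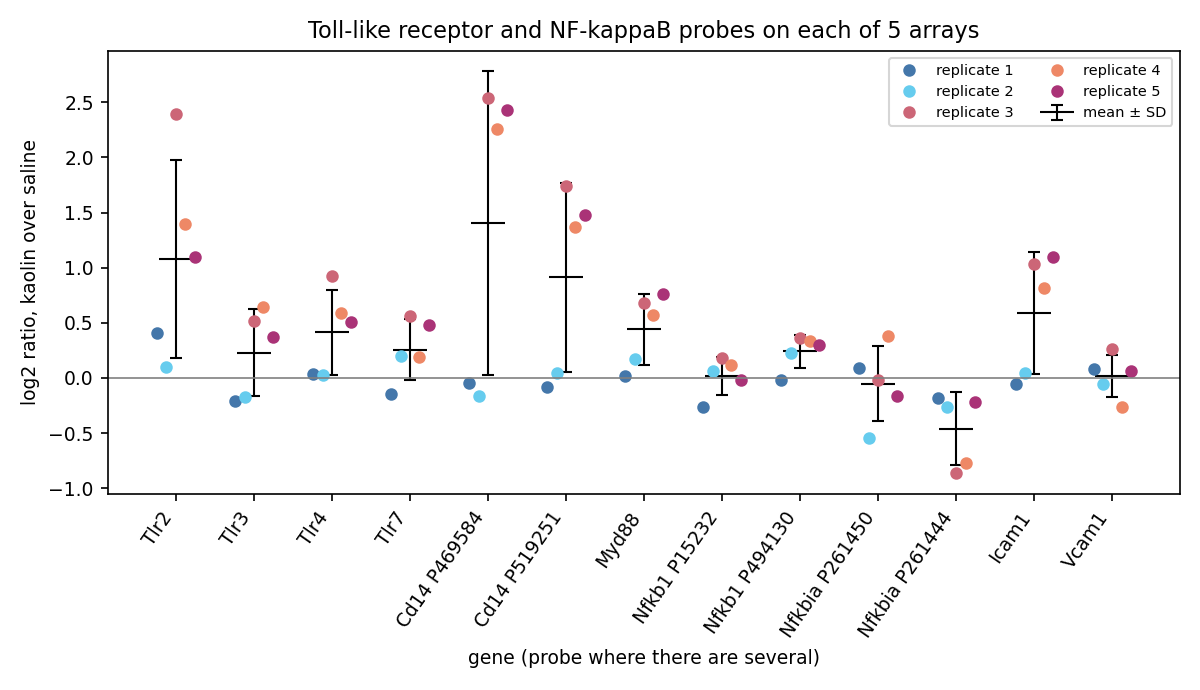
Log2 ratio of kaolin over saline (y axis) for each of the 13 probes (x axis) on 5 arrays, as points coloured by replicate; bars are the mean and SD of the 5 arrays. Cd14, Tlr2, Tlr4 and Icam1 lie between -0.16 and 0.41 on replicates 1 and 2 and between 0.50 and 2.54 on replicates 3 to 5, while Vcam1 stays between -0.26 and 0.26.

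Cd14, the co-receptor for bacterial lipopolysaccharide, was read by 2 probes 780 bases apart on chromosome 18 (rn4, the build of the array files; 18:29374990-29375049 and 18:29375770-29375829, minus strand). The brighter probe had log2 normalised intensities of 7.48, 7.41, 10.12, 9.80 and 9.91 in the kaolin samples of replicates 1 to 5, against 7.53, 7.57, 7.58, 7.54 and 7.47 in the saline samples. The saline samples lay within a narrow band (SD 0.043), and the kaolin samples of replicates 3 to 5 lay above it, while those of replicates 1 and 2 were slightly below their saline partners, so the groups overlapped. The log2 ratios were -0.05, -0.16, 2.54, 2.26 and 2.43, with a mean of 1.40 ± 1.38 (SD, n = 5; 95% confidence interval 0.29 to 2.52; limma adjusted p = 0.243). The dimmer probe gave -0.08, 0.05, 1.74, 1.37 and 1.48, a mean of 0.91 ± 0.86 (SD, n = 5), and was well above background on 4 of 5 arrays in kaolin and 2 of 5 in saline. Its mean was 2.06 with the software's processed signals. Cd14 was at the 99.8 percentile of tested genes by its mean ratio.

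Tlr2, the receptor for bacterial lipoproteins, was read by a probe at 2:175608160-175608217 (rn4, minus strand). Its log2 intensities were 9.63, 9.51, 11.31, 10.71 and 10.23 in kaolin, against 9.23, 9.42, 8.92, 9.31 and 9.14 in saline. With the channels of replicate 2 exchanged (9.51 and 9.42) the groups would overlap. As labelled, all 5 kaolin samples lay above all 5 saline samples, narrowly so for replicates 1 and 2. Such separation upward was seen for 1.37% of tested genes, and among the 10 genes for 2, Tlr2 and Myd88; none of the 10 separated downward, against 1.67% of tested genes. The log2 ratios were 0.41, 0.10, 2.39, 1.40 and 1.09, with a mean of 1.08 ± 0.90 (SD, n = 5; limma adjusted p = 0.243). An exact sign-flip permutation test gave p = 0.0625, the smallest that 5 arrays allow (two-sided), so this design cannot pass 0.05 in that test.

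Tlr4, the lipopolysaccharide receptor, was read by a probe at 5:83577410-83577469 (rn4). Its log2 intensities were 6.88, 6.75, 7.64, 7.35 and 7.26 in kaolin, against 6.84, 6.72, 6.72, 6.76 and 6.76 in saline. The kaolin samples of replicates 1, 3, 4 and 5 lay above every saline sample, that of replicate 1 narrowly, and the kaolin sample of replicate 2 lay inside the saline range. The mean log2 ratio was 0.41 ± 0.38 (SD, n = 5), positive on 5 of 5 arrays (limma adjusted p = 0.243), and 0.98 with the processed signals.

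The endosomal receptors had smaller ratios. Tlr3, a receptor for double-stranded RNA (16:50126045-50126104, rn4), had log2 ratios of -0.21, -0.17, 0.52, 0.65 and 0.37, with a mean of 0.23 ± 0.40 (SD, n = 5; limma adjusted p = 0.409), which was 0.13 without replicate 4 and 0.11 with median centring in place of loess. Tlr7, a receptor for single-stranded RNA (X:47356167-47356226, rn4), had -0.15, 0.20, 0.56, 0.19 and 0.48, with a mean of 0.26 ± 0.28 (SD, n = 5; limma adjusted p = 0.282). Neither gene's channels separated the groups: Tlr3 intensities ran from 7.86 to 8.61 in kaolin and from 7.65 to 8.25 in saline, and those of Tlr7 from 6.80 to 7.48 in kaolin and from 6.62 to 6.94 in saline. The Tlr7 mean was 0.65 with the processed signals.

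Myd88, the adaptor that links most of these receptors to their kinases, was read at 8:124301373-124301432 (rn4, minus strand). Its log2 intensities were 7.52, 7.52, 8.18, 7.93 and 8.05 in kaolin, against 7.50, 7.36, 7.50, 7.36 and 7.29 in saline. As labelled the groups did not overlap, though replicate 1 differed by only 0.02 between its channels. With the channels of replicate 2 exchanged they would overlap. The mean log2 ratio was 0.44 ± 0.33 (SD, n = 5; limma adjusted p = 0.243), positive on 5 of 5 arrays, and 0.75 with the processed signals.

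**Figure D2:**
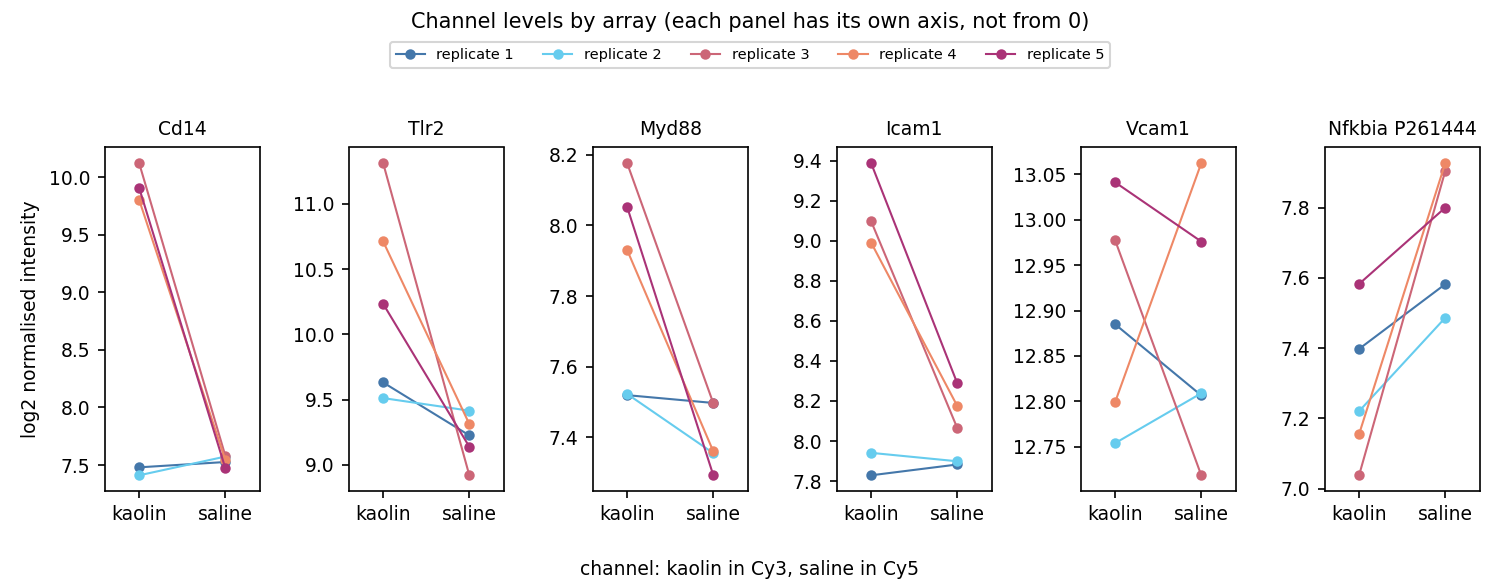
Log2 normalised intensity (y axis, own scale in each panel) in the kaolin and saline channels, with a line for each of the 5 arrays, for Cd14 (brighter probe), Tlr2, Myd88, Icam1, Vcam1 and the dimmer Nfkbia probe. Saline levels of Cd14 stay between 7.47 and 7.58 while kaolin levels reach 10.12, and every line of the dimmer Nfkbia probe is higher in saline.

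Nfkb1 encodes p105, the precursor of the p50 subunit. Its brighter probe (2:233091120-233091179, rn4, minus strand) was printed in 10 spots per array. The log2 ratios were -0.26, 0.06, 0.18, 0.12 and -0.02, with a mean of 0.02 ± 0.17 (SD, n = 5; 95% confidence interval -0.18 to 0.21; limma adjusted p = 0.926). The sign of so small a mean was not stable: it was -0.15 with median centring in place of loess. The other probe, 584 bases away, gave -0.02, 0.23, 0.36, 0.33 and 0.30, a mean of 0.24 ± 0.15 (SD, n = 5; limma adjusted p = 0.243), and 0.094 with median centring. It was higher than the brighter probe on 5 of 5 arrays, by 0.22 ± 0.063 (SD; exact sign-flip permutation p = 0.0625, adjusted p = 0.25 over 4 such comparisons, all chosen after the values were seen). The offset between the 2 Nfkb1 probes was alike on every array, from 0.17 to 0.32.

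Nfkbia encodes IkappaBalpha, which holds NF-kappaB in the cytoplasm and is itself induced by it. Its brighter probe (6:75730438-75730497, rn4, minus strand) had log2 intensities of 11.73, 11.29, 11.63, 11.86 and 11.29 in kaolin, against 11.64, 11.83, 11.65, 11.48 and 11.45 in saline. The samples were intermixed, and the mean log2 ratio was -0.05 ± 0.34 (SD, n = 5; 95% confidence interval -0.36 to 0.25; limma adjusted p = 0.836). It was 0.17 with the sign of replicate 2 turned. The dimmer probe, 222 bases away, gave log2 ratios of -0.18, -0.27, -0.87, -0.77 and -0.22, negative on 5 of 5 arrays, with a mean of -0.46 ± 0.33 (SD, n = 5; limma adjusted p = 0.243), and -0.73 with the processed signals. The difference between the brighter and the dimmer probe was 0.41 ± 0.58 (SD, n = 5; exact sign-flip permutation p = 0.25, where the smallest that 5 arrays allow is 0.0625), with the brighter probe higher on 4 of 5 arrays.

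Icam1, the ligand of leukocyte beta-2 integrins, was read by a probe printed in 10 spots per array (8:20051730-20051789, rn4). Its log2 intensities were 7.83, 7.94, 9.10, 8.99 and 9.39 in kaolin, against 7.88, 7.90, 8.06, 8.17 and 8.29 in saline. The kaolin samples of replicates 3 to 5 lay above every saline sample, and those of replicates 1 and 2 lay within or just below the saline range. The log2 ratios were -0.05, 0.04, 1.03, 0.82 and 1.1, with a mean of 0.59 ± 0.55 (SD, n = 5; 95% confidence interval 0.12 to 1.05; limma adjusted p = 0.243). The repeated spots show how well each array measured this gene. Within an array the spot SD of Icam1 was between 0.052 and 0.061 (9 or 10 spots used), against an SD of 0.55 between arrays. On replicate 3 the Icam1 spots ran from 0.93 to 1.14, while on replicate 2 they ran from -0.06 to 0.13. For Nfkb1 the spot SD was between 0.053 and 0.088, against 0.17 between arrays.

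**Figure D3:**
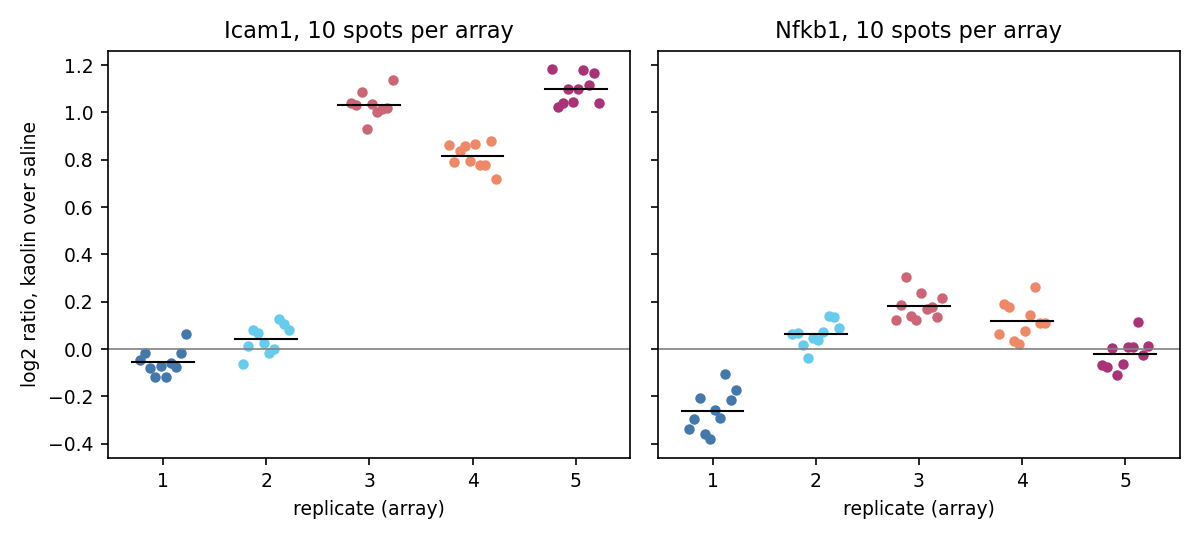
Log2 ratio of kaolin over saline (y axis) of each used spot of the Icam1 and Nfkb1 probes by array (x axis), with 10 spots printed per array and a line at their mean. The Icam1 spots of replicates 3, 4 and 5 lie between 0.72 and 1.18 and those of replicates 1 and 2 between -0.12 and 0.13, with no overlap.

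Vcam1 is the ligand of the alpha-4 beta-1 integrin. Its probe (2:212277695-212277754, rn4, minus strand) had log2 intensities of 12.88, 12.75, 12.98, 12.80 and 13.04 in kaolin, against 12.81, 12.81, 12.72, 13.06 and 12.98 in saline. The samples were intermixed, and the log2 ratios of 0.08, -0.06, 0.26, -0.26 and 0.07 had a mean of 0.02 ± 0.19 (SD, n = 5; limma adjusted p = 0.930). The 95% confidence interval was -0.19 to 0.23. With median centring the Vcam1 mean was -0.23 (adjusted p = 0.113; range over its alternatives 0.113 to 0.996). The Icam1 ratio exceeded the Vcam1 ratio on 4 of 5 arrays, by 0.57 ± 0.56 (SD; exact sign-flip permutation p = 0.1875, adjusted p = 0.25 over the 4 comparisons). With 5 arrays none of the 4 could reach 0.05.

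Promoters were searched because NF-kappaB binds a known element and the 10 genes include its subunit, its inhibitor and its targets. The 250 bases before each RefSeq gene start (GRCr8) were searched on both strands for the kappaB consensus, in which 3 G, a purine, any base, an A or T and 2 pyrimidines precede 2 C. It was found in 3 of the 10 promoters and in 3.54% of 33469 promoters. The 3 stretches are printed with the matched bases in capitals. The Nfkbia capitals fit the consensus only when read on the strand opposite to the one printed.
Tlr2 (chr2:171504684-171504783, minus strand): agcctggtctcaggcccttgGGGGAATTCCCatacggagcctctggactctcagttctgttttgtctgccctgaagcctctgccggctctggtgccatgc
Nfkbia (chr6:78597074-78597192, minus strand): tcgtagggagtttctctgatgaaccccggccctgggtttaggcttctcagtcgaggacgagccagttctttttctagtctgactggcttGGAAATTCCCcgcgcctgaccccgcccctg
Vcam1 (chr2:206742804-206742903, minus strand): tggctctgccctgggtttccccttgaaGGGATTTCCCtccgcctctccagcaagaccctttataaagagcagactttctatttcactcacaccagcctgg
The Tlr2 capitals hold 2 overlapping matches that begin 206 and 205 bases before the start, the Nfkbia match begins 31 bases before it and the Vcam1 match 93 bases before it. The mean log2 ratios of these genes were 1.08 for Tlr2, -0.05 for Nfkbia (brighter probe) and 0.02 for Vcam1, and with the sign of replicate 2 turned 1.04, 0.17 and 0.04. The other promoters, those of Cd14 and Icam1 among them, held no such letters in this window, which says nothing of elements elsewhere.

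Other genes of the pathway were read from lists of receptors, adaptors, subunits, targets and adhesion partners. None of their genes passed an adjusted p of 0.05 in limma, in either direction. The counts are over genes well above background on 3 or more arrays in each channel, so that none was tested through 1 channel alone. Of all 23464 such genes, 47.9% had positive means, and at an unadjusted p of 0.05 8.44% were higher and 10.1% lower. Of 6 other Toll-like receptors and co-receptors, 5 had positive means and 4 were higher at an unadjusted p of 0.05. Ly86 (MD-1), which pairs with a Toll-like receptor relative on immune cells, stood at a mean log2 ratio of 1.04 ± 0.85 (SD, n = 5), and Unc93b1, which carries endosomal Toll-like receptors to their compartment, 0.67 ± 0.63. At the low end stood the chaperone gene Hsp90b1 at 0.01 ± 0.21 and Tlr9, a receptor for DNA, at -0.08 ± 0.06. The probes of Tlr5 and Tlr10 were too dim to test.

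Of 13 adaptors and kinases, 8 had positive means, with 2 higher and 1 lower at an unadjusted p of 0.05. The interferon regulatory factors spanned this list: Irf7 was at 0.62 ± 0.86 and Irf5 at 0.42 ± 0.45, while Irf3 was at -0.30 ± 0.44. Map3k7 (TAK1), the kinase that activates the IkappaB kinases, was at -0.23 ± 0.22. Among 9 NF-kappaB subunits, inhibitors and IkappaB kinase genes, 5 had positive means, 3 were higher and 1 was lower at an unadjusted p of 0.05. Nfkbie (IkappaBepsilon) at 0.43 ± 0.27 and Rela (the p65 subunit) at 0.33 ± 0.19 were positive on 5 of 5 arrays, and the kinase genes Ikbkb at -0.22 ± 0.16 and Chuk at -0.21 ± 0.36 were lowest. The list's median was 0.05, against 0.44 for 13 NF-kappaB target genes, 12 of which had positive means and 7 of which were higher at an unadjusted p of 0.05.

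Among the targets, Ccl2, a monocyte attractant, stood at 1.83 ± 1.61 (SD, n = 5) and Lcn2, an iron-sequestering acute-phase protein, at 1.55 ± 1.37. The lowest were Sele (E-selectin) at -0.07 ± 0.07, well above background on 2 of 5 arrays in kaolin and 1 of 5 in saline and so not in the count, and Ptgs2 (cyclooxygenase-2) at -0.47 ± 0.59. Tnf, Il6 and Nos2 were too dim to test. Of 8 leukocyte adhesion partners, 7 had positive means and 1 was higher at an unadjusted p of 0.05, Itgam, an integrin subunit of an Icam1 receptor, at 0.65 ± 0.70. The probe of Itgal, another such subunit, was well above background on 3 of 5 arrays in kaolin and 0 of 5 in saline, so no ratio is given for it. Selplg, a selectin ligand, was at -0.01 ± 0.18.

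Markers of the cells that could carry these transcripts were read on the same arrays. The microglia and macrophage list had medians of -0.01, 0.05, 2.0, 1.35 and 1.57 on replicates 1 to 5, with 13 of 13 tested genes positive, and the 10 genes described here had medians of -0.01, 0.03, 0.62, 0.58 and 0.49. Tyrobp, an adaptor of microglial receptors, averaged 1.53 ± 1.1, Cd68 1.27 ± 1.26 and Aif1 1.12 ± 0.84 (SD, n = 5 each). C1qb, a complement subunit gene and among the brightest of that list, averaged 1.51 ± 1.06. The summed intensity of the microglia list ran from 36645 to 122911 in kaolin and from 34762 to 39334 in saline, and all 13 of its tested genes were well above background on every array. Endothelial and pericyte markers had a median of 0.04 with 9 of 12 positive, Cldn5 at 0.04 ± 0.24 and Pecam1 at 0.02 ± 0.18, and summed intensities from 26283 to 31881 in kaolin and from 24968 to 30591 in saline. Astrocyte markers had 4 of 10 positive and a median of -0.02 (summed intensity 78717 to 121568 in kaolin, 86806 to 100702 in saline). At an unadjusted limma p of 0.05, 2 of the 10 were higher and 0 lower, against 8.44% and 10.1% of genes above background in both channels. Gfap, 1 of these 2, averaged 1.81 ± 1.23. Oligodendrocyte markers had 5 of 9 positive and a median of 0.02. Of the granulocyte markers, 3 of 5 above background in both channels were positive (summed intensity over 6 tested genes 632 to 757 in kaolin, 642 to 752 in saline). Of these 5, 1 was higher and 0 lower at an unadjusted limma p of 0.05, against the same 8.44% and 10.1%. The probes of Mpo, Ngp and Cxcr2 were too dim to test. Of the lymphocyte markers, 1 of 2 above background in both channels was positive (summed intensity over 4 tested genes 512 to 845 in kaolin, 520 to 553 in saline). Of these 2, 1 was higher and 0 lower at an unadjusted limma p of 0.05, against the same shares. Cd3e, Cd2, Cd4 and Ms4a1 were among the lymphocyte markers too dim to test. Meningeal markers had 10 of 11 positive and medians of -0.54, -0.13, 0.81, 0.08 and 0.62 (summed intensity 43181 to 121752 in kaolin, 64327 to 83319 in saline). Choroid plexus markers had 0 of 8 tested genes positive (0 of 6 above background in both channels), with summed intensities from 1380 to 4037 in kaolin and from 1839 to 57599 in saline, and Ttr averaged -2.85 ± 1.80. The part that any of these cell types has in the ratios of the 10 genes was not tested.

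**Figure D4:**
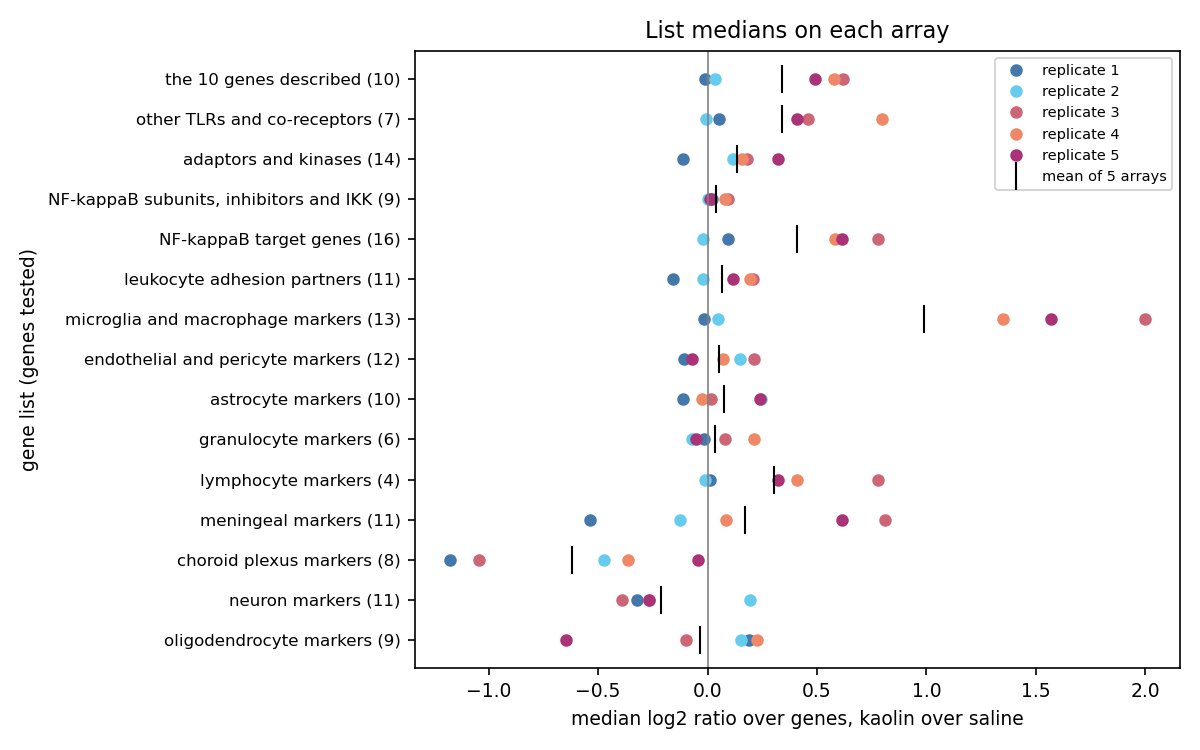
Median log2 ratio of kaolin over saline over the tested genes of each list (x axis), with a point for each of the 5 arrays, a bar at their mean, and the number of genes tested in brackets. The microglia list lies between 1.35 and 2.0 on replicates 3 to 5, while the endothelial list stays between -0.11 and 0.21 on every array.

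The genes most like Cd14, Tlr2 and Icam1, the 3 with the largest ratios with normexp at an offset of 50, were sought by the root mean square difference of the log2 ratio over 5 arrays. The search covered the 12042 other tested genes that had a current rat symbol, out of 24824 tested genes. Nearest to Cd14 was Lcn2 (difference 0.16), with ratios of 0.14, -0.04, 2.57, 2.45 and 2.61, followed by Aspg (0.22) and Cp, the ceruloplasmin gene (0.23). Nearest to Tlr2 were Slamf9 (0.18), the nucleotide receptor gene P2ry6 (0.24) and Ly86 (0.25). Nearest to Icam1 were Gsdmd, the pore-forming gasdermin D gene (0.07), Ltbr, the lymphotoxin beta receptor gene (0.087), and Slc39a6 (0.094). Lcn2 and Ly86 also stand in the pathway lists above.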

How the data were processed

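Agilent Feature Extraction 10.1.1.1 made the scanner files, as their headers record. Mean spot signals and local backgrounds are deposited as raw intensity, and processed signals as intensity after background subtraction, detrending and dye normalization by a linear step and lowess, as the deposited headers record. The deposited log10 ratio is Cy5 over Cy3, per the file headers; spot flags are deposited as other values of 0 or 1. The authors' series matrix holds log2 ratios; their normalization: not given in the sources used here; its columns ran opposite to the software's log10 ratio (r from -1.00 to -0.978), so they were read as Cy3 over Cy5 (column medians 0.02, -0.05, -0.02, 0.09 and -0.10).

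Outlier spots (86 to 147 per array) were left out. Signals were corrected by normexp (offset 50) and normalized by loess within arrays, control spots having no weight, and spots of a probe were averaged. Channel levels were taken after Aquantile. A probe was tested where 3 or more arrays had it well above background in either channel (29114 of 41012); all 13 probes of the 10 genes passed. Ratios of kaolin over saline were fitted against 0 with limma 3.58.1 (R 4.3.3), two-sided, with Benjamini-Hochberg adjustment. A gene is its brightest probe. Current symbols were found for 10768 probes by accession, 276 by another accession, 4994 by symbol and 3341 by an older symbol; 21633 kept the file's name. Probe positions are those of the files (rn4); exon and UTR positions were not used here. Promoters are from RefSeq (GRCr8), all 10 matched by symbol. The members and lists were chosen with earlier results of these data known. Genes outside the set were named as the 2 highest and 2 lowest of each pathway list, with a fixed panel of markers; Ptprc of that panel was not matched and Tnf was too dim. Of the brightest genes of each marker list, those the text needs are printed, and some are not reported here.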

Additional observations from a re-analysis of the deposited data

How the results depend on the processing

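Directions held for 10 of the 13 probes under all 16 alternatives (15 for the dimmer Cd14 probe, which the stricter filter removes); the other 3 had means near 0. The brighter Nfkb1 probe was -0.15 with median centring, -0.025 without replicate 3, -0.0092 without replicate 4 (-0.025 to 0.086 with 1 array left out) and -0.0090 with the sign of replicate 2 turned, an alternative chosen after seeing the data. Vcam1 was -0.23 with median centring, -0.022 with array weights and -0.044 to 0.087 with 1 array left out (lowest without replicate 3). The brighter Nfkbia probe was 0.084 with array weights, -0.16 to 0.070 with 1 array left out (highest without replicate 2) and 0.17 with the sign of replicate 2 turned. The median over the 10 genes was 0.69 with the processed signals and 0.68 with the software's log ratio and with the authors' matrix, and 0.50 with normexp at an offset of 0, against 0.34. Probes past an adjusted p of 0.05 numbered 22 with median centring, 2830 with array weights and 489 with the sign of replicate 2 turned, and from 0 to 1536 (without replicate 2) with 1 array left out. Of the 13 probes, 7 passed with array weights, which gave replicate 2 a weight of 0.47 and replicate 4 a weight of 2.21 (Tlr2, Tlr4, both Cd14 probes, Myd88, Icam1 and the dimmer Nfkbia probe), against 9.72% of tested probes; 0 passed without replicate 2, where the smallest adjusted p among them was 0.056, and 0 in every other setting. The cause was not tested. With the slide as a block the Cd14 mean was 1.79 and that of Icam1 0.78. Within the first slide alone, which is the fit without replicate 5, no probe passed, and the other slide holds 1 array. The fit of the ratios is already paired, because each array sets 1 kaolin against 1 saline sample. No further numbering links samples, so no other pairing was possible. Signal near background limits the dimmer Cd14 probe. Counts over genes above background in both channels were chosen after seeing the data.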

Other observations

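The order of the 2 Cd14 probes depended on how background was handled. With normexp and an offset of 50 the brighter probe had the larger mean log2 ratio (1.40, against 0.91 for the dimmer), and with the processed signals the dimmer probe had the larger (2.06, against 1.69). With an offset of 0 they were close, at 1.47 for the dimmer probe and 1.60 for the brighter. Tlr4 moved likewise: its mean was 0.41 with the offset of 50, 0.66 with an offset of 0 and 0.98 with the processed signals, while the bright Tlr2 probe stayed at 1.08, 1.15 and 1.12. The rank of the dim probes by size of ratio therefore differed between these settings.

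Between-sample spread was unequal in the 2 groups for several of these genes. The SD of log2 intensity was 1.37 in kaolin and 0.043 in saline for the brighter Cd14 probe, 0.75 in kaolin and 0.19 in saline for Tlr2, 0.71 in kaolin and 0.17 in saline for Icam1, and 0.12 in kaolin and 0.14 in saline for Vcam1 (n = 5 samples each). These SDs are given as values with no test.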
